A study of Mus musculus with 6 samples.

Results

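The genes described here are Srf, which encodes serum response factor (SRF), Mkl1 and Mkl2, which encode its coactivators of the MRTF family, and 7 genes of the actin cytoskeleton: Fhl1, Fhl2, Actb, Actg1, Tpm3, Tpm4 and Myh9. They were taken by name from the deposited table, which lists 29955 gene names, and all 10 were found. All 10 also had a mean of at least 1 FPKM (fragments scaled by transcript length and by the mapped fragments of the library) over the libraries, as did 11816 names in all, which were tested.

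SRF is a transcription factor that binds the CArG box, a short AT-rich element, beside genes of the actin cytoskeleton and immediate-early genes. The MRTF proteins are held in the cytoplasm by monomeric actin. When actin is drawn into filaments, they are released, enter the nucleus and act with SRF, so that the genes for actin and its partners follow the state of actin itself. This pathway takes part in the change of endothelial cells toward a contractile, mesenchymal state under TGF-β.

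The cells were MS-1, a single immortalised endothelial line of the mouse. They were transfected with a negative-control microRNA inhibitor, an inhibitor of miR-31 or an inhibitor of miR-27, which the titles mark as LNA (locked nucleic acid), and kept for 72 h without or with 1 ng/ml TGF-β2. The transfected cells are called control, miR-31-inhibited and miR-27-inhibited cells below. Each of these 6 conditions had 1 library, so no condition was replicated, and the 3 transfections served as the repeats of the TGF-β comparison. The labels do not say whether they were separate cultures, so a p-value here reflects only how far these libraries scatter. The sums of 8 endothelial markers lay between 1423 and 1526 FPKM without and between 1541 and 1568 with TGF-β, but single markers changed: Kdr (-0.80), Esam (-0.39) and Tie1 (-0.33) fell and Emcn rose (0.80, differences in log2(FPKM + 1) in limma), and 4 did not pass. Those of 6 markers of differentiated smooth muscle lay between 26.2 and 27.7 FPKM without and between 18.6 and 21.1 with TGF-β. They were mostly Smtn, which fell by 0.52 (limma adjusted p = 0.00193). Des, the other tested one with a mean of 1.25 FPKM, rose by 0.335 (limma adjusted p = 0.00333). Without TGF-β it stood at 1.07, 0.889 and 1.02 FPKM in control, miR-31-inhibited and miR-27-inhibited cells. It passed the filter only through the libraries with TGF-β, so its call is a description. Cnn1, under the filter, was also higher with TGF-β in each transfection, between 0.352 and 0.507 FPKM beside 0.171 to 0.280. Myh11, Lmod1 and Actg2 were at or under 0.0948 FPKM. Of the 5 fibroblast markers, whose sum went from between 1.87 and 2.51 to between 15.7 and 19.8 FPKM with TGF-β, nearly all was Pdgfra. The sums of 4 leukocyte, 4 epithelial and 5 striated muscle markers were at or under 0.0621, 1.01 and 0.0622 FPKM. The epithelial sum, mostly Cldn4, went from between 0.0296 and 0.0948 to between 0.694 and 1.01 FPKM with TGF-β. Epcam and Krt5 were listed at 0. A value of 0 may be a failed estimate here, because Eef1a1, which all cells need to make protein, also has 0 in the 6 libraries. The part of such cells in the results below was not tested, and in bulk RNA fewer cells of a type and less RNA per cell cannot be told apart. The response to TGF-β lay at least 1 (log2) above or below both other responses for 22 genes in control, 58 in miR-31-inhibited and 23 in miR-27-inhibited cells, and for 0 of the 10 genes in each.

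The promoters of these genes are described first, because the CArG box is the element that SRF binds. Binding of SRF to them was not measured here. RefSeq promoters (GRCm38.p6, 250 bases before to 50 after the start) were found for 9 of the 10 genes, 15 promoters in all, with Mkl1 and Mkl2 listed as Mrtfa and Mrtfb. Actb had no entry. A CArG box, which reads as a CArG box on both strands, was present in 5 of the 15 promoters and in 4 of the 9 genes, Srf, Fhl1, Fhl2 and Actg1. Of all 32851 promoters in the table, 1.63% held one. The genes were named as SRF, its coactivators and cytoskeletal targets, so this share is a description of the list and no independent finding. Capitals mark the CArG boxes in the Srf promoter and in the first of 2 Fhl1 promoters, the gene with the largest response, and in windows of 60 bases from the 2 Fhl2 promoters and from Actg1.
Srf, chr17:46556113-46556412, minus strand: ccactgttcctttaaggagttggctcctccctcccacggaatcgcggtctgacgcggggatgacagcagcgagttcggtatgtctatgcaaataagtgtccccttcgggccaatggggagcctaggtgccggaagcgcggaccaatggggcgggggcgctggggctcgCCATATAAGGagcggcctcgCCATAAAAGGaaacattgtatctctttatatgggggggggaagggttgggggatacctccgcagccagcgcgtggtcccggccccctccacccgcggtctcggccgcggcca
Fhl1, first promoter, chrX:56779433-56779732, plus strand: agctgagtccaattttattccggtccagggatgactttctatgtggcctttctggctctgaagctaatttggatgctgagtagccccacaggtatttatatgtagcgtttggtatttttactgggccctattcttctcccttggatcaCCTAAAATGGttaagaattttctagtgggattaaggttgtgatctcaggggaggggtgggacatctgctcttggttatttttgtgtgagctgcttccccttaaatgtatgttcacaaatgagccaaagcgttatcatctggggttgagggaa
Fhl2, first promoter, chr1:43196823-43196882, minus strand: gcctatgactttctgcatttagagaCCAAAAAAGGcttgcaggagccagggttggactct
Fhl2, second promoter, chr1:43163958-43164017, minus strand: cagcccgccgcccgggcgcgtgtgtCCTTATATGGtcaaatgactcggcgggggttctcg
Actg1, chr11:120348551-120348610, minus strand: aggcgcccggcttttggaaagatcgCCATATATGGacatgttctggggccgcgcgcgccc

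Srf carries 2 boxes, from -82 to -73 and from -62 to -53 relative to its start, so the gene for the factor bears the element that the factor binds. The boxes of Fhl1 (-102 to -93), Actg1 (-90 to -81) and the first Fhl2 promoter (-96 to -87) lie at a similar distance, and that of the second Fhl2 promoter lies at -31 to -22. The letters CAGACA, a sequence that Smad proteins can bind, were found on either strand in 6 promoters of 5 of the genes, Mkl1, Mkl2, Fhl1, Tpm3 and Myh9, against 21.0% of all promoters. None of the 15 promoters held both, and the table does not say which promoter these cells used. A match of letters describes the sequence and is not a site.

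Levels per transcript length (FPKM) were lowest for Mkl1 and highest for Actb. Without TGF-β, the cytoplasmic actin gene Actb stood at 4866 ± 121 FPKM (SD over the 3 transfections) and the other cytoplasmic actin gene, Actg1, at 587 ± 43.1. The tropomyosin genes, whose products lie along actin filaments, followed with Tpm4 at 472 ± 11.0 and Tpm3 at 409 ± 16.3, and Myh9, the heavy chain of non-muscle myosin IIA, with 195 ± 8.28 FPKM. The regulators were far lower, with Srf at 12.9 ± 0.426, Mkl2 at 5.74 ± 0.468 and Mkl1 at 2.81 ± 0.225 FPKM. Of the LIM-only genes, Fhl2 stood at 16.8 ± 1.06 and Fhl1 at 4.63 ± 0.974 FPKM. In this order only the neighbours Mkl2 and Fhl1 overlapped between libraries. By their mean over the 6 libraries, Actb lay at percentile 99.8 of the tested genes, Srf at 49.9 and Mkl1 at 15.3. With TGF-β, Fhl1 passed Fhl2 and Srf, and Actg1 (547 ± 29.9) and Tpm4 (525 ± 20.9) overlapped.

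With TGF-β, Fhl1 rose 8.22-fold by the means of the 3 transfections, while the differences of the other 9 genes lay between -0.29 and 0.28 on the log2(FPKM + 1) scale. Mkl1, Fhl2, Tpm4 and Myh9 rose, Tpm3 fell, and Srf, Mkl2, Actb and Actg1 did not pass the test. The test was limma with the inhibitor as a term and Benjamini-Hochberg adjustment over all tested genes, at a threshold of 0.05. Of the 10 genes 6 passed, in a comparison where 50.2% of all tested genes did, so that count is near the background. By direction, 5 passed higher and 1 lower, where 22.7% and 27.5% of all tested genes did. The 5 and 1 were also counted under upper-quartile and median-ratio scaling, while the higher share of all calls was 45.2% unscaled and 53.9% and 49.7% with these scalings. The median difference of the 10 was 0.11 against -0.02 for all tested genes, and the median size was 0.15 against 0.17. In 6 of the 10 the libraries with and without TGF-β did not overlap, as in 58.4% of all tested genes.

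**Figure D1:**
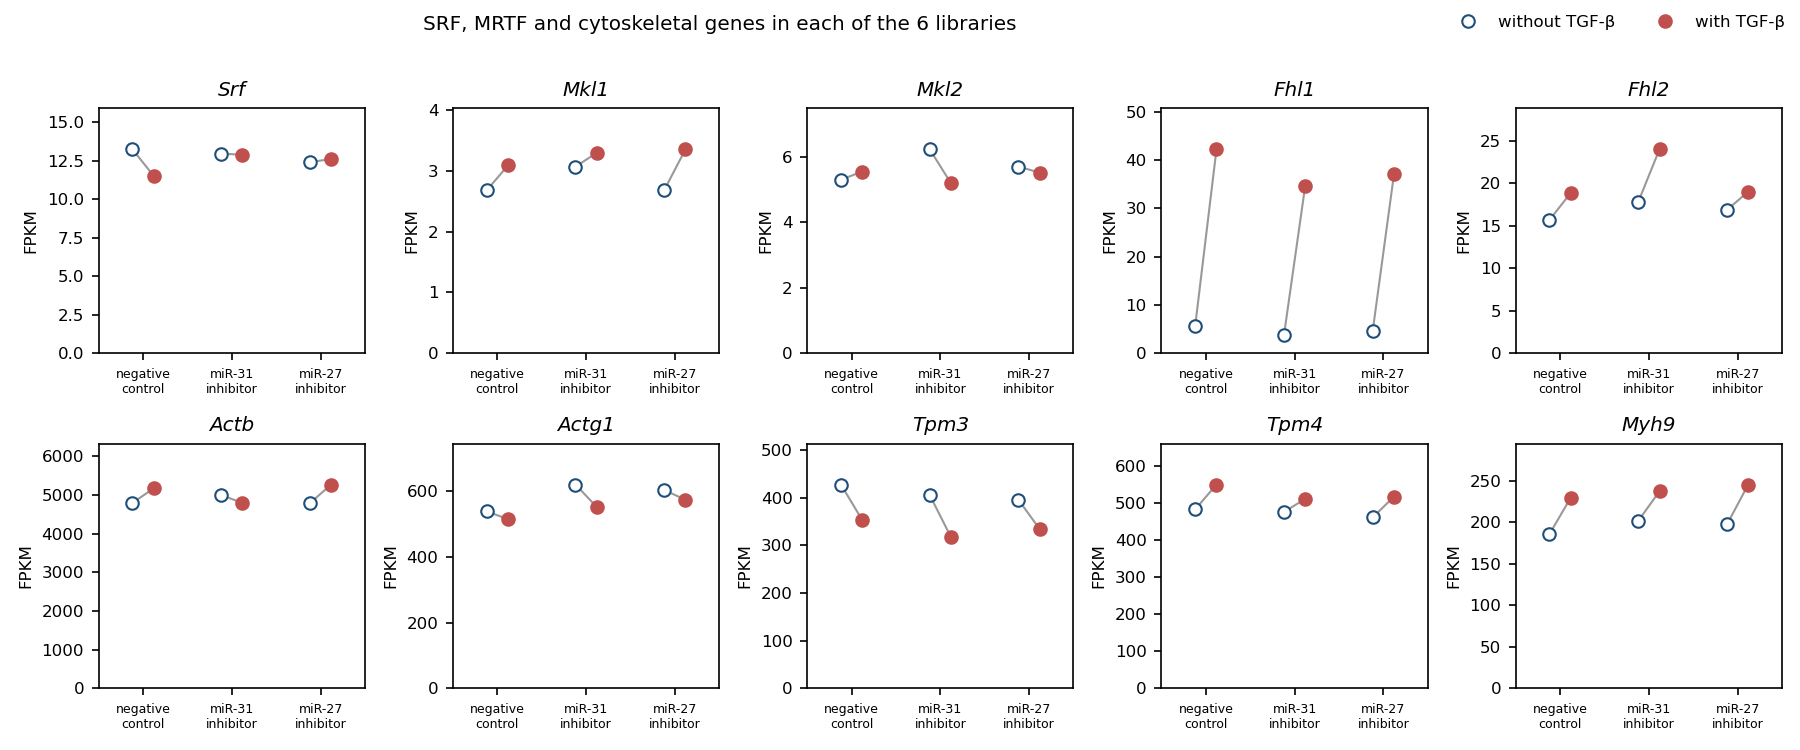
FPKM (vertical axes from 0, each gene on its own scale) of the 10 genes in the 6 libraries, with 1 point per library, open without and filled with TGF-β, joined within each transfection. Fhl1 goes from at most 5.62 to at least 34.7 FPKM in all 3 transfections, Myh9 and Tpm3 move by less in opposite directions, and Srf stays between 11.5 and 13.2 FPKM.

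Srf itself measured 13.2 FPKM without TGF-β and 11.5 with it in control cells, 13.0 and 12.9 in miR-31-inhibited cells and 12.4 and 12.6 in miR-27-inhibited cells. The 6 values differed by at most 1.15-fold, and those with and without TGF-β overlapped. The fitted difference was -0.06 ± 0.06 (SE of the fit), with a 95% interval from -0.20 to 0.09 (limma adjusted p = 0.428). The interval thus holds changes of up to 0.20 down and leaves the sign undetermined. The level of Srf RNA says nothing of how much SRF was active.

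Mkl1, also called Mrtfa, went from 2.68 to 3.09 FPKM in control cells, from 3.07 to 3.30 in miR-31-inhibited cells and from 2.68 to 3.36 in miR-27-inhibited cells. Every library with TGF-β was above every library without it. In the alternative runs, leaving out either library of a transfection gave the same TGF-β result, so tallies here and below hold repeats. The difference of 0.16 ± 0.05 passed narrowly (limma adjusted p = 0.0479) and was called in 5 of 13 alternatives. Without either negative-control library it was 0.16 (adjusted p = 0.168), and without either miR-27 library 0.12 (adjusted p = 0.230). The locus listed for Mkl1 (mm9, chromosome 15, 80808195 to 81021187) is also the locus listed for Sgsm3 and Cip85, and the table does not show how reads were divided between these names.

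Mkl2, also called Mrtfb, measured 5.30 FPKM without TGF-β and 5.55 with it in control cells, 6.23 and 5.19 in miR-31-inhibited cells and 5.70 and 5.51 in miR-27-inhibited cells. Its values overlapped, and its largest move was that with the miR-31 inhibitor. The difference was -0.07 ± 0.07, with an interval from -0.24 to 0.10 (limma adjusted p = 0.410). Mkl2 exceeded Mkl1 in all 6 libraries, by 1.98-, 2.03- and 2.13-fold without TGF-β and by 1.80-, 1.57- and 1.64-fold with it, in the order control, miR-31-inhibited and miR-27-inhibited cells. The ratio was lower with TGF-β in each transfection.

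The LIM-only proteins are built of LIM domains and act as adaptors at actin filaments and in the nucleus, where Fhl2 is known to bind SRF. Fhl1 (mm9, chromosome X, 53984964 to 54046523) went from 5.62 to 42.3 FPKM in control cells, from 3.68 to 34.7 in miR-31-inhibited cells and from 4.59 to 37.2 in miR-27-inhibited cells. These are rises of 7.52-, 9.45- and 8.09-fold, and the groups lay far apart. The fitted difference was 2.80 ± 0.06 (limma adjusted p = 2.802e-05), larger in size than that of 99.6% of the tested genes, and it was called in all 14 alternatives.

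Fhl2 (mm9, chromosome 1, 43179919 to 43253606) went from 15.7 to 18.9 FPKM in control cells, from 17.8 to 24.0 in miR-31-inhibited cells and from 16.9 to 19.0 in miR-27-inhibited cells. The groups did not overlap, and the highest value was that of the miR-31 inhibitor with TGF-β. The difference was 0.28 ± 0.06 (limma adjusted p = 0.0169) and was called in 10 of 14 alternatives. It missed the threshold without either negative-control library (0.29, adjusted p = 0.0720). Its listed locus is shared with a row named Rpl29, a ribosomal protein gene. Fhl1 went from 0.359, 0.207 and 0.272 times the Fhl2 level without TGF-β to 2.24, 1.45 and 1.95 times with it. Of the other LIM-only genes, Fhl3 was at 4.22, 3.76 and 3.12 FPKM without and at 3.02, 3.59 and 2.77 with TGF-β (-0.19, limma adjusted p = 0.0913). Fhl4 and Fhl5 lay under the filter.

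Actb (mm9, chromosome 5, 143664795 to 143668403) measured 4798 FPKM without TGF-β and 5176 with it in control cells, 5006 and 4795 in miR-31-inhibited cells and 4794 and 5275 in miR-27-inhibited cells. Its 6 values had a coefficient of variation of 4.29%, and the groups overlapped. The difference was 0.06 ± 0.06, with an interval from -0.08 to 0.20 (limma adjusted p = 0.391). Actg1 was at 538, 620 and 603 FPKM without and at 514, 552 and 574 with TGF-β, for control, miR-31-inhibited and miR-27-inhibited cells. It was lower with TGF-β in each transfection, but the groups overlapped and the difference of -0.10 ± 0.04 did not pass (limma adjusted p = 0.111). Actb exceeded Actg1 by 8.91-, 8.08- and 7.95-fold without and by 10.1-, 8.69- and 9.20-fold with TGF-β. These genes are close in sequence and have processed copies in the genome, so how reads were shared between them limits both values.

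Of the other actin genes, Acta2, the smooth muscle actin, was at 0.134, 0.113 and 0.158 FPKM without and at 16.7, 10.2 and 11.7 with TGF-β. It rose by 3.58 ± 0.13 (limma adjusted p = 9.202e-05), yet Actb still exceeded it by 309-, 472- and 450-fold. Its values without TGF-β lay under the filter of 1 FPKM, so it was tested only through those with TGF-β. Its call is thus a description. Acta1, Actc1 and Actg2 stayed at or under 0.0948 FPKM. The summed FPKM of Actb and Actg1 was 5336, 5626 and 5397 without and 5690, 5347 and 5849 with TGF-β, beside which Acta2 remained a minor actin transcript.

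The tropomyosin genes moved apart. Tpm3 (mm9, chromosome 3, 89876616 to 89904526) fell from 427 to 353 FPKM in control cells, from 405 to 317 in miR-31-inhibited cells and from 395 to 334 in miR-27-inhibited cells. Tpm4 (mm9, chromosome 8, 74659191 to 74677028) went from 482 to 549, from 475 to 510 and from 460 to 516 FPKM in the same order. Neither gene overlapped between the groups. The differences were -0.29 ± 0.04 for Tpm3 (limma adjusted p = 0.00550) and 0.15 ± 0.04 for Tpm4 (limma adjusted p = 0.0340). Tpm3 was called in all 14 alternatives and Tpm4 in 10, but Tpm4 did not pass without either negative-control library (0.13, adjusted p = 0.177) or without either miR-27 library (0.14, adjusted p = 0.158). Tpm4 exceeded Tpm3 by 1.13-, 1.17- and 1.17-fold without and by 1.56-, 1.61- and 1.55-fold with TGF-β.

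Tpm1, which gives the long tropomyosins of smooth muscle and stress fibres, rose by 2.17 ± 0.04 (limma adjusted p = 2.494e-05), from 166 to 773, from 154 to 673 and from 163 to 744 FPKM. Its share of the summed tropomyosin FPKM went from 15.4%, 14.9% and 16.0% to 46.2%, 44.9% and 46.7%. Tpm3 went from 39.7%, 39.2% and 38.8% of the sum to 21.1%, 21.1% and 20.9%. The share of Tpm4 was lower as well, from 44.8%, 45.9% and 45.2% to 32.8%, 34.0% and 32.4%, although its own FPKM was higher. Tpm2 stayed at or under 0.158 FPKM. The table sums the many isoforms of each gene and cannot tell them apart.

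**Figure D2:**
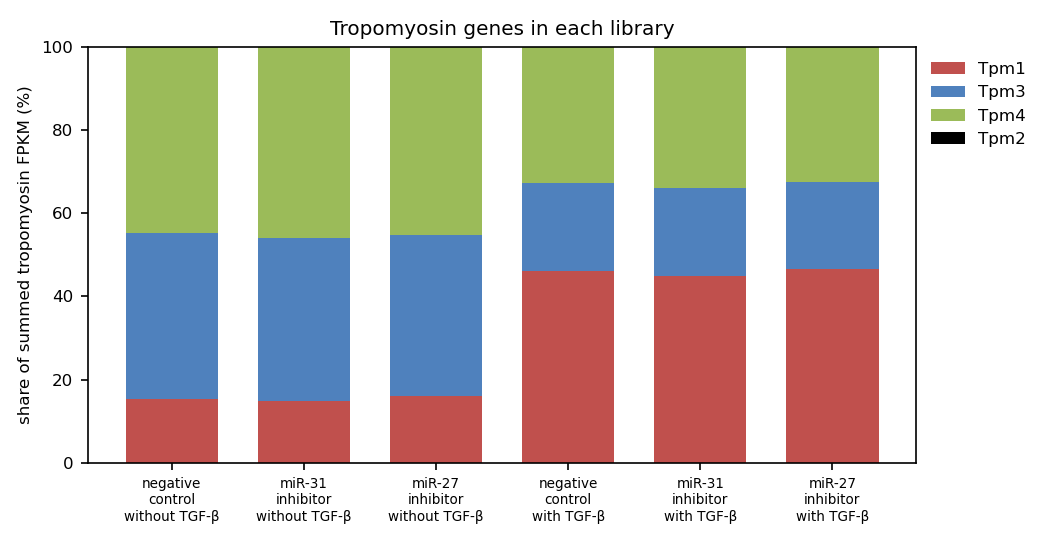
Share (percent, vertical axis) of Tpm1, Tpm3, Tpm4 and Tpm2 in their summed FPKM, 1 bar per library, with the 3 libraries without TGF-β at the left. Tpm1 takes 14.9% to 16.0% of the sum without and 44.9% to 46.7% with TGF-β, and Tpm2 is too low to be seen.

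Myh9 (mm9, chromosome 15, 77591019 to 77672545), whose product pulls on actin filaments, went from 186 to 230 FPKM in control cells, from 202 to 238 in miR-31-inhibited cells and from 198 to 246 in miR-27-inhibited cells. The lowest library with TGF-β lay above the highest without it. Myh9 rose by 0.28 ± 0.04 (limma adjusted p = 0.00504), or 1.24-, 1.18- and 1.24-fold, and was called in all 14 alternatives. Myh10, the heavy chain of non-muscle myosin IIB, fell by 0.17 (limma adjusted p = 0.0458), from 42.0 to 38.8, from 43.1 to 35.2 and from 42.0 to 38.6 FPKM. Myh9 exceeded Myh10 by 4.42-, 4.68- and 4.70-fold without and by 5.93-, 6.75- and 6.37-fold with TGF-β. Of the light chain genes, Myl12b rose by 0.32 (limma adjusted p = 0.0100), and Myl6 was at -0.04 (limma adjusted p = 0.585). Myl9 and Myh14 were at or under 0.0361 FPKM, and Myl12a was not found by name in the deposited table.

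**Figure D3:**
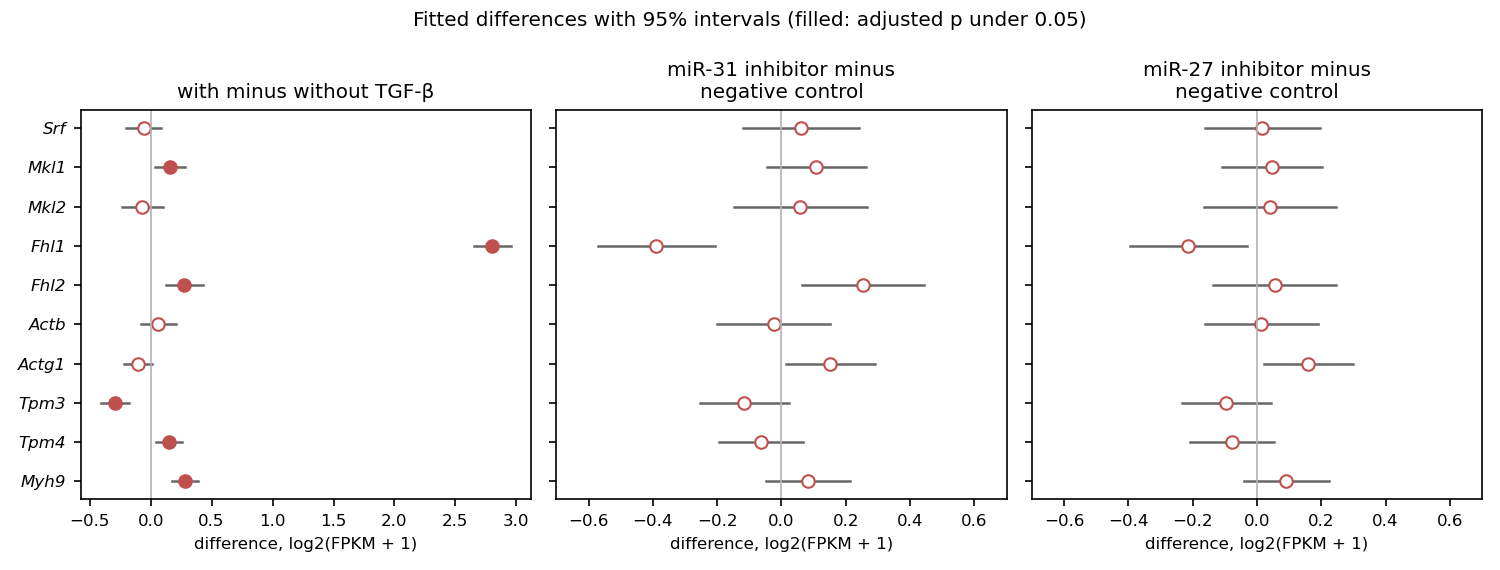
Fitted differences of the 10 genes in log2(FPKM + 1) (horizontal axes) with 95% intervals, for TGF-β and for each inhibitor against the negative control, filled where the adjusted p is under 0.05. Fhl1 stands at 2.80 under TGF-β, the other 9 lie between -0.29 and 0.28, and no point is filled for either inhibitor.

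Neither inhibitor gave a call among the 10 genes. With the miR-31 inhibitor 0 passed, beside 0.0339% of all tested genes, and with the miR-27 inhibitor 0 passed, beside 0.00846%. At an unadjusted p under 0.05 in limma, 3 of the 10 remained for miR-31 (Fhl1, Fhl2 and Actg1) and 2 for miR-27 (Fhl1 and Actg1), where 18.1% and 12.4% of all tested genes did, so these counts are near the background. Both comparisons use the same negative-control libraries, so their values are not independent. Between the inhibitors 0 passed, where 0.0169% of all tested genes did. Fhl2 alone had an unadjusted p under 0.05 there, as did 3.41% of all tested genes.

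Fhl1 had the largest fitted difference with each inhibitor. In miR-31-inhibited cells it stood at 3.68 FPKM, beside 5.62 in control cells, and under TGF-β at 34.7 beside 42.3, a fitted difference of -0.39 ± 0.07 (interval -0.57 to -0.21, limma adjusted p = 0.227). With the miR-27 inhibitor it was at 4.59 and 37.2 FPKM, a difference of -0.21 ± 0.07 (interval -0.40 to -0.03, limma adjusted p = 0.364). Fhl2 differed with the miR-31 inhibitor by 0.17 without and 0.33 with TGF-β (fitted 0.25 ± 0.07, limma adjusted p = 0.236). When the miR-31 library without TGF-β was left out, that difference was 0.35 and passed (adjusted p = 0.0413), in a fit that called 1137 of the 11816 genes. Actg1 was higher than the negative control by 0.20 and 0.10 in miR-31-inhibited and by 0.16 and 0.16 in miR-27-inhibited cells, without and with TGF-β (adjusted p = 0.254 and 0.365). Fhl2 with the miR-27 inhibitor was at 0.05 (interval -0.14 to 0.24, limma adjusted p = 0.775). For the other 7 genes the fitted differences with either inhibitor lay between -0.12 (Tpm3) and 0.11 (Mkl1), both with the miR-31 inhibitor. Their 95% intervals all included 0 and reached from -0.25 (Tpm3) to 0.27 (Mkl2).

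The sequences of the microRNAs show which transcripts could pair with them. Capitals mark the seed, bases 2 to 8, of the mature mouse sequences in RefSeq (GRCm38.p6). The seeds of miR-27a and miR-27b are the same.
mmu-miR-31-5p: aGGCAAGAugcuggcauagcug
mmu-miR-27a-3p: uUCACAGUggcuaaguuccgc
mmu-miR-27b-3p: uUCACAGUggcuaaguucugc

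In the longest annotated 3′ UTR of each of the 10 genes (GENCODE vM21), the 7 letters that pair with the miR-31 seed, TCTTGCC, occurred in Actg1 alone, with 1 match. Those that pair with the miR-27 seed, ACTGTGA, occurred in Mkl1 and Tpm3, with 1 match each. Of 9546 tested genes with such a UTR, 13.2% held a miR-31 and 17.8% a miR-27 match, so 1 and 2 of 10 are near these shares. The fitted difference of Actg1 with the miR-31 inhibitor was 0.15, beside 0.16 with the miR-27 inhibitor. Those of Mkl1 and Tpm3 with the miR-27 inhibitor were 0.05 and -0.10 (limma adjusted p = 0.769 and 0.502).

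The other genes of the pathway were taken from lists that hold none of the 10 genes, though the lists share some names with each other. These lists were chosen with earlier results of these data known, so counts from them are descriptions. Of 28 other MRTF-SRF targets, 23 were tested, with a median TGF-β difference of 0.53 against -0.02 for all tested genes. Of the 23, 18 rose and 2 fell, where 22.7% and 27.5% of all tested genes did. Those that rose included Ctgf, a matricellular gene also driven by Smad and YAP (3.77), Acta2 (3.58) and Tpm1 (2.17). Among them was also Cald1, an actin-binding regulator of contraction (1.58, from 149 to 470 FPKM in control cells). Acta2, counted here, passed the filter only through its libraries with TGF-β. Tln1 (-0.21), which links integrins to actin, and Wdr1 (-0.18), which helps take filaments apart, fell. Actn4 (-0.15), Zyx (0.04) and Mylk (0.11) did not pass, and these 5 were named after their values were seen. Without either negative-control or either miR-27 library, 16 rose and 0 fell. Tagln, Cnn1, Tpm2, Myl9 and Lmod1 lay under the filter, at or under 0.608 FPKM. Untested, Tagln was higher with TGF-β in each transfection, at 0.608, 0.354 and 0.474 FPKM beside 0.312, 0.264 and 0.189. The same held for Cnn1 and for Myl9, which was listed at 0 without TGF-β. Tpm2 and Lmod1 had no single direction.

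Of the SRF partners, Elk4, a ternary complex factor that joins SRF at immediate-early genes, rose by 0.61 ± 0.04 (limma adjusted p = 0.000449), from 34.9 to 55.1, from 33.8 to 50.7 and from 34.2 to 53.2 FPKM. Scai, a suppressor of MRTF activity, rose by 0.23 (adjusted p = 0.00768). Elk1 (-0.11) and Elk3 (0.14) did not pass, and Myocd, the muscle-specific relative of the MRTFs, was at or under 0.00973 FPKM. Of these 4 tested genes 2 rose, where 22.7% of all tested genes did. That count was 1 without either negative-control or either miR-27 library, and 3 without either miR-31 library. Of 9 immediate-early targets, 4 were tested. Junb rose (2.31), from 21.0 to 95.4 FPKM in control cells, and Egr1 (-1.03) and Mcl1 (-0.25) fell. Egr1 was low, going from 2.35 to 0.603 FPKM in control cells. So 1 rose and 2 fell, where 22.7% and 27.5% of all tested genes did. Egr2, Egr3, Fos, Fosb and Nr4a1 lay under the filter. Ier2 did not pass, with responses of -0.81 in control, 0.13 in miR-31-inhibited and -0.69 in miR-27-inhibited cells.

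**Figure D4:**
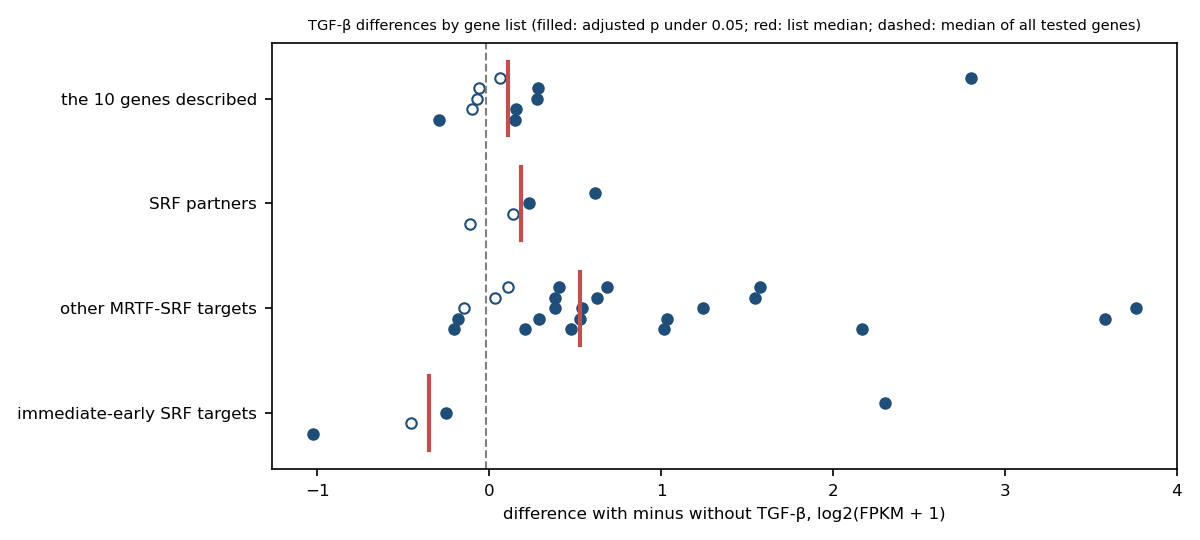
TGF-β differences in log2(FPKM + 1) (horizontal axis) of the tested genes of each list, 1 point per gene, filled where the adjusted p is under 0.05, with the list median in red and the median of all tested genes dashed. The other MRTF-SRF targets have a median of 0.53, and Fhl1 at 2.80 is apart from the rest of its list.

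By their pattern over the 6 libraries, the genes most like Srf were Tmem104, Inca1 and Thap4, with a Pearson r of log2(FPKM + 1) of 0.96 each, among 10032 genes compared. For Mkl1 they were Ppt2 (0.99), Pde2a (0.98) and Sh3d20 (0.98), and for Mkl2 Ubr3 (0.996), Ephb2 (0.99) and Mrps25 (0.99). With 6 points that share TGF-β states and libraries, such values are a description, and 21, 164 and 25 genes passed 0.9 for Srf, Mkl1 and Mkl2.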

How the data were processed

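The deposited table holds FPKM, which the authors computed by scaling to transcript length and library size, with a column for each library. TopHat2 2.0.9 and Cufflinks 2.1.1 are named, with mouse build mm9, per the submitters' processing notes. Total RNA was cleared of ribosomal RNA and made into strand-specific libraries, per the labels' protocols. Annotation, strand use in counting and filters are not given in the sources used here. The table has no counts, so the depth is unknown. Loci are printed with starts counted from 1: for 5320 of 13957 single loci the annotated length equals end minus start as listed, and for 347 that value plus 1.

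Values were analysed as log2(FPKM + 1), which understates changes of low genes, for names with a mean of at least 1 FPKM. limma 3.58.1 in R 4.3.3 fitted TGF-β and inhibitor as additive terms to the 6 libraries, without trend or robust options, 2-sided, with 2 residual degrees of freedom and a prior of 2.87. The residual holds both noise and any dependence of the response on the inhibitor. Differences of 2 libraries have no test. The scripts were tested on simulated data. Alternatives were the pseudocount (0.1 and 5), the filter (none and 5 FPKM), 2 scalings, trend and robust options, leaving out each library, and no inhibitor term. Every one of the 10 genes was named, and from each other list the 4 largest tested changes and all genes of the families. Likeness was read for Srf, Mkl1 and Mkl2 as the 3 highest r, without short RNAs and unnamed models. The genes and lists were chosen with earlier results of these data known. One further gene list that was examined is not reported here.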

Additional observations from a re-analysis of the deposited data

Results flagged for a closer look

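Of the 10 genes, 3 had responses to TGF-β of opposite sign between transfections, each from 1 library without and 1 with TGF-β, so that the difference was not tested. As differences in log2(FPKM + 1), Srf was at -0.19 in control, -0.0087 in miR-31-inhibited and 0.022 in miR-27-inhibited cells. Mkl2 was at 0.057, -0.22 and -0.042 in the same order, and Actb at 0.11, -0.062 and 0.14. None of the 3 passed the test over the transfections, and a value near 0 changes sign easily.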

How the results depend on the processing

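Leaving out 1 library at a time, the TGF-β comparison called 3 to 6 of the 10 genes (2 to 5 higher) and 3566 to 6087 of all genes, where 5926 were called with all libraries. In this design, leaving out either library of a transfection removes that transfection from the TGF-β contrast. Fhl1, Tpm3 and Myh9 were called in every alternative run. Mkl1 also missed the threshold with a pseudocount of 5, no filter, trend and robust options or no inhibitor term (adjusted p = 0.0906, 0.0870, 0.0657 and 0.0588), and Fhl2 with no filter or no inhibitor term (0.0639 and 0.0576). At a mean of at least 5 FPKM, Mkl1 was not tested. Directions turned with libraries left out for differences near 0. For TGF-β, Srf ran from -0.098 to 0.0064 and Mkl2 from -0.13 to 0.0075. For miR-31, Srf ran from -0.036 to 0.16, Mkl2 from -0.057 to 0.17 and Actb from -0.12 to 0.068. For miR-27, Srf ran from -0.080 to 0.11, Mkl1 from -0.017 to 0.11, Mkl2 from -0.054 to 0.14, Fhl2 from -0.028 to 0.14 and Actb from -0.044 to 0.070. With libraries left out, miR-31 called 0 to 1 of the 10 genes and 3 to 1137 of all genes (4 with all libraries), miR-27 1 to 12 (1), and the inhibitors against each other 2 to 208 (2). With no filter limma called 0 genes in each of these 3 comparisons, with 3162, 2685 and 1190 at an unadjusted p under 0.05. Trend and robust options called 13 for miR-31. Between the inhibitors, a pseudocount of 5, a mean of at least 5 FPKM and upper-quartile scaling called 1 each. The causes were not tested. The inhibitor term already compares TGF-β within each transfection; without it, 4 of the 10 genes (3 higher) and 5450 of all genes were called. No further pairing was possible, since the labels give no replicate numbers. Depth is unknown, so no limit from depth can be given.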
